A study of Homo sapiens with 27 samples.

Results

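The numbered ZNF genes encode zinc finger proteins, most of them transcription factors that read DNA through arrays of fingers. Here they were taken as every gene whose symbol is ZNF, a number and at most 1 further letter, with at least 100 expected counts in nascent RNA of HL-60 cells given the vehicle DMSO. The rule found 250 genes, out of 557 genes with such a symbol and 58233 genes in all. Of the 250, RefSeq lists 247 as protein coding and 3 (ZNF767P, ZNF252P and ZNF271P) as transcribed pseudogenes. The DMSO count chose the genes, so that count is a description. Just inside the threshold stood ZNF211 with 100, and ZNF273 and ZNF48 with 101 each. Just outside it were ZNF417 with 99.83, ZNF440 with 99 and ZNF341 with 97.

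HL-60 is an established human promyelocytic leukaemia line. The study made 27 libraries, each the only one of its group, so every ratio below compares libraries and carries no test of the conditions. Untreated cells gave total RNA and nascent RNA, the newly made RNA captured through a chemical label. Nascent RNA was also made after DMSO, after DRB at 100 µM and after actinomycin D (ActD) at 0.8 µM. DRB inhibits the kinase that releases RNA polymerase II into elongation, whereas ActD slides between base pairs of DNA and stops the polymerase. The sources used here do not state how long the cells were treated. Histone variant H2A.Z and its acetylated form (acH2A.Z) were mapped by chromatin immunoprecipitation (ChIP) under the same 3 treatments and in cells labelled siMyc or siNTC. No RNA library carries either of those labels, so the level of MYC RNA behind siMyc was not checked. RNA immunoprecipitation (RIP) with antibodies to H2A.Z, acH2A.Z and the acetyltransferase Tip60 was done on untreated cells.

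Many ZNF proteins carry a KRAB domain beside the fingers. That domain binds TRIM28, which brings SETDB1 and other silencing enzymes to the bound DNA, and many KRAB proteins bind transposable elements. The genes arose by repeated duplication and lie in runs, above all on chromosome 19. Others, such as ZNF143 or ZNF24, lack the domain and are known at promoters, and a few, such as ZNF622 and ZNF598, act in the cytoplasm on ribosomes.

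The RNA libraries held 12600067 to 25167597 expected counts over genes. Mitochondrial genes took 45.9% of the DMSO counts, 66.5% of the DRB counts and 56.9% of the ActD counts. In untreated nascent RNA they took 0.560% and in total RNA 0.649%. The library-scaled level of every other gene, given as CPM (counts per 1000000 counts over genes), moves with that share. Medians in DRB and ActD rescaled without mitochondrial, ribosomal RNA and polymerase III genes are given below. Why the share differs was not tested. In bulk RNA, fewer cells expressing a gene and less RNA per cell cannot be told apart. Of 9 promyelocyte markers, 8 had over 3 counts in the DMSO, DRB, ActD and total RNA libraries. The exception was ELANE, the neutrophil elastase gene, at 0 there and at 4 counts in untreated nascent RNA. The summed level of the 9 ranged from 970 CPM in DRB to 2244 in DMSO. Of 12 erythroid, lymphoid, epithelial and fibroblast markers, 1 exceeded 3 counts in DMSO (CD79A, with 17) and none did in DRB or ActD. In total RNA 1 did and in untreated nascent RNA, the deepest library, 8 did, and their summed level stayed at or below 4.05 CPM in each library.

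The ZNF genes were spread over 21 chromosomes, with 99 of the 250 on chromosome 19, 23 on chromosome 7 and 17 on chromosome 16. Their median span was 26.2 kb, against 33.9 kb for other genes with at least 100 DMSO counts. Runs of neighbouring ZNF symbols no more than 500 kb apart, with at least 8 of the chosen genes, numbered 7. The fullest, from ZNF264 to ZNF324 on chromosome 19 (GRCh38, 57191500 to 58489533), held 43 ZNF symbols, 23 of them chosen. The run from ZNF577 to ZNF331 (51571283 to 53580269) held 42, of which 19 were chosen. Counts that were not whole, which arise when reads are divided between similar copies, occurred in 119 of the 250 genes in at least 1 RNA library (more than 0.001 from a whole number). On chromosome 19 this was 60 of 99, and the share among other genes is not given here. Values of close paralogues such as ZNF587 and ZNF587B or ZNF33A and ZNF33B are therefore uncertain. The sources used here do not state whether counting used strand, so antisense reads cannot be told apart either.

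A promoter window of 300 bases, 250 before the annotated gene start and 50 after it, was available from RefSeq (GRCh38.p14) for 211 of the 250 genes. These windows are shown for the genes at the extremes of the comparisons below, since both the acH2A.Z peaks and the MYC question concern the start of the gene. Capitals mark the letters searched on both strands, where matches of different motifs may overlap. These were CACGTG for the E-box, the element MYC binds. The ETS site was searched as CCGGAAGT. The SP1 box was searched as GGGCGG. The cyclic AMP element, or CRE, was searched as TGACGTCA. The YY1 site was searched as AAGATGGC, and the TATA box and the CCAAT box by the letters TATAAA and CCAAT. Each sequence reads 5′ to 3′ on the strand of its gene. ZNF200 (chr16:3235109-3235408, minus strand) was among the genes with the lowest DRB to DMSO ratio and ZNF814 (chr19:57888988-57889287, minus) had the highest:
ZNF200: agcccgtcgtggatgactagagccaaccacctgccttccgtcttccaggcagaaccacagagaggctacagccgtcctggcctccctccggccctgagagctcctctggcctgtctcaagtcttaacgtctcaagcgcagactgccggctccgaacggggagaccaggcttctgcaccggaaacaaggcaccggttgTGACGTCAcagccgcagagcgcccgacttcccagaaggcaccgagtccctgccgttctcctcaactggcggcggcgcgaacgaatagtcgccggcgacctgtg
ZNF814: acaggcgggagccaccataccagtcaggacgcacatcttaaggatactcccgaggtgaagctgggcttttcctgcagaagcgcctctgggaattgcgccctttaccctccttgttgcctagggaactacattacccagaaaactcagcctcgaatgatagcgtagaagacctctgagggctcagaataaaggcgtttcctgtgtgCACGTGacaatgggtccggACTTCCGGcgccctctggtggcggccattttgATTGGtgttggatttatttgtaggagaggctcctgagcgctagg

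ZNF200 holds 1 CRE, whose first base lies 53 bases before the gene start. ZNF814 holds an E-box 45 bases and an ETS site 26 bases before the start, and CCAAT on the other strand after it. ZNF184 (chr6:27473056-27473355, minus) was among the lowest in ActD and ZNF577 (chr19:51887902-51888201, minus) was the highest:
ZNF184: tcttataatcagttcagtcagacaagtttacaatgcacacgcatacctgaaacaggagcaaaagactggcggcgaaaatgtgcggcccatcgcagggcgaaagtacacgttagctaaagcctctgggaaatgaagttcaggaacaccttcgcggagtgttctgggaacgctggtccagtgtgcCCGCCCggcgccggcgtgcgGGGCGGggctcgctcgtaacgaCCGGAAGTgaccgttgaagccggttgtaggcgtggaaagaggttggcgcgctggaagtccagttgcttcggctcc
ZNF577: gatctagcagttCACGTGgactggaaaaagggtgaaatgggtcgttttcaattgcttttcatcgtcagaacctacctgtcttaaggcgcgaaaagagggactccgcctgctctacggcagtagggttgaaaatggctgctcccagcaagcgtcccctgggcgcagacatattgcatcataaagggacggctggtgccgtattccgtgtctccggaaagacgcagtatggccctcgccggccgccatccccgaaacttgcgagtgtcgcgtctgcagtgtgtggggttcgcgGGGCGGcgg

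ZNF274 (chr19:58182811-58183110, plus) had the acH2A.Z peak with the highest score. ZNF593 (chr1:26169658-26169957, plus) and ZNF202 (chr11:123741611-123741910, minus) both hold an E-box, and are shown because the acH2A.Z peak of ZNF593 was listed in siNTC and not in siMyc while that of ZNF202 was listed in both:
ZNF274: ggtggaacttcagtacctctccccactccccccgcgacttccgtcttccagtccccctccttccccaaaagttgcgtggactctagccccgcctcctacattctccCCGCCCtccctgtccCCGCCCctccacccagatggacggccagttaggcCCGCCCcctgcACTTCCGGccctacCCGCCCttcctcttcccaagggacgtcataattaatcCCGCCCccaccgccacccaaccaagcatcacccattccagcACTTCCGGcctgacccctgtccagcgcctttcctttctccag
ZNF593: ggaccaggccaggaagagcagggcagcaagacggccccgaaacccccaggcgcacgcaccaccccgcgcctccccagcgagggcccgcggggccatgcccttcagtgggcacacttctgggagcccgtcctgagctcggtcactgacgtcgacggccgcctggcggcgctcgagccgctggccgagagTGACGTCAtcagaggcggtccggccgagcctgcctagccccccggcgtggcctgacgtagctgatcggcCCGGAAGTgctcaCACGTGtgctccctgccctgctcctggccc
ZNF202: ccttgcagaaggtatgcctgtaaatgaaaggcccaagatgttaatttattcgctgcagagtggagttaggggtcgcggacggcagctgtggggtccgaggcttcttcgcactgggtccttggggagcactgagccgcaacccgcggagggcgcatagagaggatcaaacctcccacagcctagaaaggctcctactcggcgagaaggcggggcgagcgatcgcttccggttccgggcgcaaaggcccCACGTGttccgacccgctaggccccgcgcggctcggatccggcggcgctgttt

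Over the 211 windows, the ETS letters occurred in 43 (20.4%, exact 95% binomial interval 15.2 to 26.5%). They occurred in 4.31% of the windows of 27094 other RefSeq genes, and in 10.8% of those of 6207 other genes with at least 100 DMSO counts. CCAAT occurred in 44.5% of the ZNF windows, 35.6% of all others and 38.5% of the others at that count. The SP1 box went the other way between these backgrounds, with 63.0%, 44.4% and 71.5%. TATAAA stood at 3.79%, 12.0% and 5.22%, and the E-box, with 16 ZNF windows, at 7.58%, 7.43% and 11.3%. For the CRE the shares were 5.69%, 1.95% and 3.8%, and for the YY1 site 5.69%, 3.01% and 7.04%. The median GC content was 62.0% in the ZNF windows, 58.3% in all others and 65.3% in the others at that count, so base composition differs between the sets too. A match of letters is a description, not a bound site.

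In DMSO the 250 genes ranged from 6.93 to 216 CPM with a median of 17.5 CPM. Other genes with at least 100 counts had a median of 26.5 CPM. Per kilobase of effective transcript length, the highest ZNF level was that of ZNF638, an RNA-binding nuclear protein, at 140 CPM per kb. ZNF622, a ribosome maturation factor, followed at 87.8, then ZNF131 at 86.0 and ZNF106 at 83.5, while the median was 8.93. The 250 genes had a median of 3.21 CPM under DRB and 6.03 under ActD, and of 14.4 in untreated nascent and 19.1 in total RNA. Together they took 0.728% of the DMSO counts, 0.252% under DRB and 0.488% under ActD, beside 0.599% of untreated nascent and 0.800% of total RNA. In the shallow input DNA, with 440923 to 469547 counts over genes, their share was 1.42% (DMSO), 1.49% (DRB) and 1.32% (ActD).

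The first question was what holding back elongation with DRB did to new RNA of these genes. Most stood lower in the DRB library. Below, "lower" and "higher" mean a difference of at least 2-fold in CPM with 1 CPM added to each value, and ratios are on the log2 scale. Of 250 genes, 197 (78.8%) were lower and 3 (1.2%) were higher in DRB than in DMSO, with a median of -2.29. Among other genes with at least 100 DMSO counts 58.8% were lower and 2.3% higher, with a median of -1.31, and among all 12121 genes tested 54.7% and 9.1%, with -1.19. Since the rule chose genes by their DMSO count, and that count is the denominator, no inference is drawn from these counts. Relative to the median gene the ZNF median was -1.11, with 133 lower and 23 higher. On that scale 53.2% of ZNF genes were lower and 9.2% higher, against 29.5% and 17.0% of the others at that count and 26.4% and 24.9% of all genes tested. Rescaled without mitochondrial, ribosomal RNA and polymerase III genes, the ZNF median was -1.80 and that of the others at that count -0.62. No ZNF gene was at 0 in DMSO, and 11 were at 0 in DRB, where 3 counts equal 0.209 CPM. With those at their bound the median was unchanged at -2.29.

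**Figure D1:**
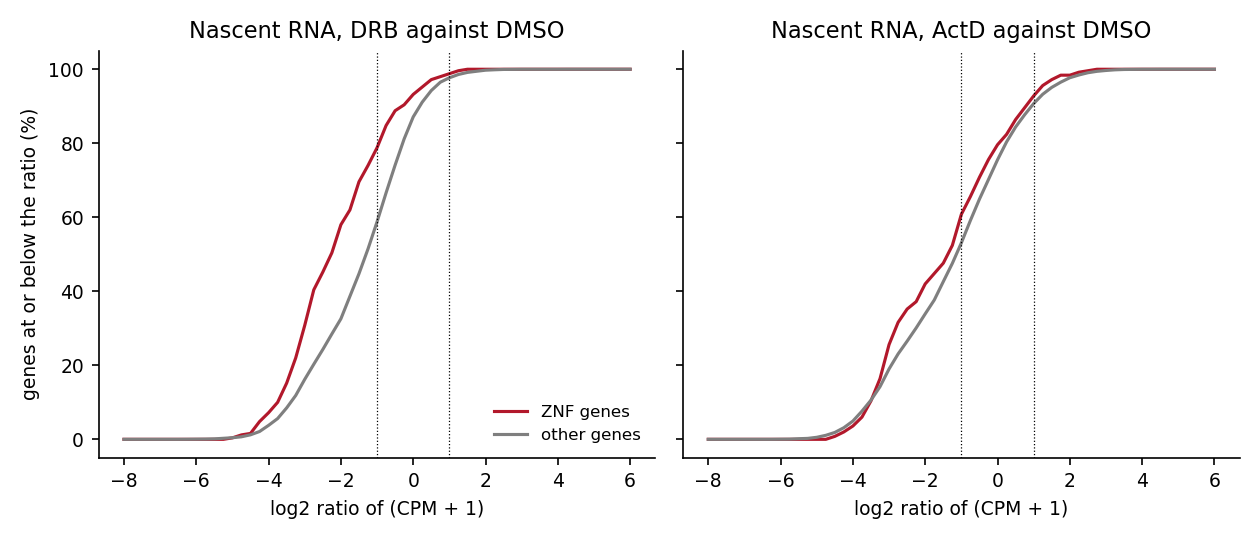
Share of genes (vertical axis, %) at or below each log2 ratio of CPM + 1 (horizontal axis) for DRB (left) and ActD (right) against DMSO, for the 250 ZNF genes and other genes with at least 100 DMSO counts. Dotted lines mark 2-fold. In DRB 78.8% of ZNF genes and 58.8% of other genes lie at or below the lower line, in ActD 60.8% and 53.1%.

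The lowest ratios in DRB belonged to genes that were well detected in every other RNA library. With 1 CPM added, a gene of low DMSO level cannot reach so low a ratio, so their DMSO level follows in part from the scale. ZNF251, on chromosome 8, had 52.8 CPM under DMSO, 0.418 under DRB and 5.95 under ActD, and untreated cells had 33.0 in nascent and 54.8 in total RNA. DRB, with 6 counts, was its low library, and the ratio to DMSO was -5.24. Without the added CPM the ratio was -6.98, with a 95% interval for counting error of -8.43 to -5.85. ZNF200 had 40.4 CPM in DMSO, 0.349 in DRB and 18.7 in ActD, a DRB ratio of -4.94. ZNF629 went from 55.2 CPM in DMSO to 0.976 in DRB (-4.83), ZNF202, a KRAB repressor linked to lipid metabolism genes, from 36.0 to 0.558 (-4.57), and ZNF263 from 30.3 to 0.418 (-4.46). All 5 stood between these values in ActD. Among genes at 0 in DRB, ZNF689 was at least 89.8-fold lower and ZNF549 at least 66.3-fold lower than in DMSO.

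The 3 genes higher in DRB had moderate counts. ZNF814 had 9.51 CPM in DMSO, 27.4 in DRB and 6.98 in ActD, with 10.3 in untreated nascent and 16.8 in total RNA. DRB was its highest library, at a ratio of 1.44 (without the added CPM 1.53, interval 1.24 to 1.82). ZNF704 went from 17.8 to 43.2 CPM (1.23) and the pseudogene ZNF767P from 9.01 to 22.4 (1.22). ZNF337 at 0.80 and ZNF618 at 0.78 came next and stayed within 2-fold. All 5 were at or below 7.30 CPM in ActD.

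Span and level went with the DRB ratio. The 88 ZNF genes spanning under 20 kb had a median of -2.99 with 82 lower and 0 higher, the 110 of 20 to 50 kb -2.34 with 86 lower, and the 52 over 50 kb -1.30 with 29 lower. Other genes of these spans had -1.71, -1.54 and -0.87, with 65.8%, 67.1% and 45.7% lower, where the ZNF shares were 93.2%, 78.2% and 55.8%. By DMSO count, ZNF genes with 100 to under 200 counts had -2.65, those with 200 to under 500 -2.18, those with 500 to under 1000 -1.95 and those with 1000 or more -1.88, against -1.68, -1.44, -1.29 and -0.97 for other genes. Divided by span and count together into 12 classes, the ZNF median lay below the other median in 11. The exception was genes over 50 kb with 1000 or more counts, at -0.79 (10 ZNF genes) and -0.83. A class held as few as 3 ZNF genes. Chosen instead on 100 counts in untreated nascent RNA, a library that is not in this ratio, 301 ZNF genes had a median of -2.04 and 9881 other genes -1.12, with 75.7% and 53.2% lower.

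**Figure D2:**
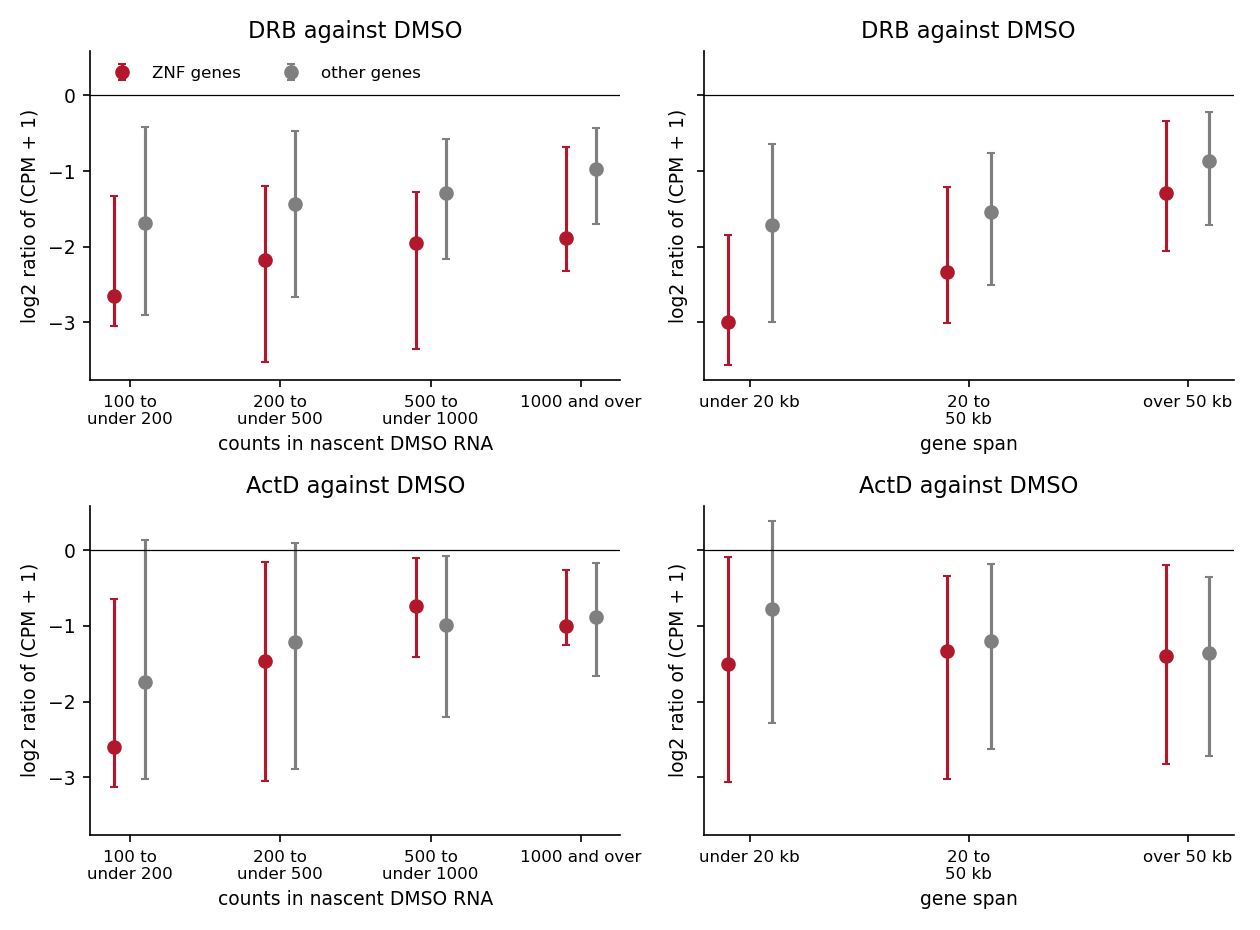
Median log2 ratio of CPM + 1 (points) with the 25th to 75th percentile over genes (bars) for ZNF genes and other genes, by DMSO count (left) and gene span (right), for DRB (top) and ActD (bottom) against DMSO. In DRB the ZNF median runs from -2.99 under 20 kb to -1.30 over 50 kb. In ActD it runs from -2.60 at the lowest DMSO counts to -0.74 and -1.0 at the 2 highest.

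ActD was compared with the same DMSO library, so the 2 sets of ratios share their denominator and are given side by side only. In ActD 152 ZNF genes (60.8%) were lower and 18 (7.2%) higher, with a median of -1.42. Centred on the median gene it was -0.41, with 104 lower (41.6%) and 52 higher (20.8%), and the centred shares were 33.8% and 24.6% of the others at that count and 31.6% and 30.1% of all genes tested. Of other genes with at least 100 DMSO counts 53.1% were lower and 9.27% higher, with -1.14, and of all genes tested 50.1% and 15.4%, with -1.01. Rescaled as for DRB, the ZNF median was -1.08 and that of the others at that count -0.78. At 0 in ActD stood 11 genes, where 3 counts equal 0.238 CPM.

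ZNF618 had 28.2 CPM in DMSO, 49.2 in DRB and 0.159 in ActD, with 30.4 in untreated nascent and 35.4 in total RNA. ActD, with 2 counts, was its low library, at a ratio to DMSO of -4.66 (without the added CPM -7.47, interval -10.52 to -5.61). ZNF184 stood at 34.5 CPM in DMSO, 7.04 in DRB and 0.556 in ActD (-4.51 in ActD), ZNF236 at 106, 22.3 and 3.89 (-4.45), and ZNF101 at 26.0, 3.0 and 0.317 (-4.36). ZNF182, at 19.8 CPM in DMSO and 0 in ActD, was at least 83.0-fold lower. These genes were measured in every other RNA library.

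On the high side, ZNF577 had 11.7 CPM in DMSO, 14.9 in DRB and 75.2 in ActD, with 17.9 in untreated nascent and 15.0 in total RNA. ActD was its highest library, at 2.58 (without the added CPM 2.68, interval 2.45 to 2.93). ZNF484 stood at 7.49 CPM in DMSO, 0.0697 (1 count) in DRB and 44.8 in ActD, so it was lower in DRB at -2.99 and higher in ActD at 2.43. ZNF335, a subunit of a histone methyltransferase complex, had 11.8, 4.04 and 57.4 CPM (2.19 in ActD), ZNF460 12.1, 12.2 and 55.6 (2.12), and ZNF740 14.6, 8.09 and 50.0 (1.71). All 5 exceeded their untreated nascent level in ActD, where ZNF335 had 45.5 and ZNF460 47.2 CPM.

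In ActD the ratio differed between chromosome 19 and the rest. The 99 genes on chromosome 19 stood at a median of -2.04, 67 of them lower, and the 151 elsewhere at -1.18, 85 of them lower. These are 67.7% and 56.3%, while of other genes 49.6% were lower on chromosome 19, at a median of -0.98, and 53.1% elsewhere. Within 20 to 50 kb the medians were -2.07 on chromosome 19 and -0.61 elsewhere, with 55 genes each. The gap was narrower under 20 kb, at -2.003 (35 genes) and -1.44 (53 genes). Over 50 kb it was narrower too, at -1.59 (9 genes) and -1.21 (43 genes). DMSO level was not held fixed in this contrast. In DRB the ZNF genes on chromosome 19 and elsewhere stood closer, at -2.48 and -2.14, with -1.56 for other genes of chromosome 19. The run on chromosome 19 from ZNF428 to ZNF180 had a median of -2.98 in ActD over 11 genes, and the run from ZNF264 to ZNF324 had -1.18 over 23, with 4 of them higher. By span the ActD medians were -1.50, -1.33 and -1.40 from shortest to longest, against -0.78, -1.20 and -1.36 for other genes. By DMSO count the ActD medians were -2.60, -1.47, -0.74 and -0.9996 from lowest to highest, against -1.74, -1.21, -0.99 and -0.88 for other genes. The shares lower were 67%, 62.0%, 47.2% and 50% of ZNF genes and 61.3%, 53.9%, 49.6% and 45.1% of others. The ZNF median lay below the other median in 9 of the 12 span and count classes. The exceptions all had at least 500 counts. They were 20 to 50 kb in both upper count classes, and over 50 kb at 1000 or more counts.

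Neither library of the next comparison was used to choose the genes. Set directly against DRB, 101 ZNF genes (40.4%) were higher in ActD and 44 (17.6%) lower, with a median of 0.50, or 0.53 with genes at 0 at their bound. Among other genes with at least 100 DMSO counts 31.8% were higher and 24.9% lower (median 0.15), and among all genes tested 32.9% and 26.9%, with 0.10. By DMSO count the ZNF medians were 0.01, 0.73, 1.93 and 0.60 from lowest to highest, against 0.02, 0.20, 0.28 and 0.14 for others. At 500 to under 1000 counts 23 of 36 were higher and 3 lower (63.9% and 8.33%), against 32.0% and 23.6% of other genes. Genes under 20 kb had 0.99, those of 20 to 50 kb 0.55 and those over 50 kb -0.09, and other genes 0.76, 0.22 and -0.39, so both sets ran in the same order of span.

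ZNF700 had 0.907 CPM in DRB and 89.5 in ActD, a ratio of 5.57 (without the added CPM 6.63, interval 5.85 to 7.54), beside 31.1 in DMSO and 36.1 in untreated nascent RNA. ZNF484 stood at 5.42. ZNF281, a repressor studied in stem cells, had 0.976 and 82.2 CPM (5.40), ZNF777 0.976 and 60.4 (4.96), and ZNF22 0.0697 and 27.5 (4.73). In each of these 5, DMSO lay between the 2 drugs. At the other end, ZNF618 stood at -5.44, ZNF767P with 22.4 and 0.159 CPM at -4.34, ZNF329 with 17.4 and 0.159 at -3.99, and ZNF587B and ZNF337 at -3.51 each.

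Other zinc finger families by symbol, with at least 100 DMSO counts, were set beside the ZNF genes. In DRB all 8 ZFP, all 12 ZSCAN and all 6 ZKSCAN genes were lower, with medians of -2.66, -3.14 and -2.62, as were 18 of 23 ZBTB genes at -2.58. Of other genes outside the ZNF set with at least 100 DMSO counts, 58.8% were lower in DRB. In ActD the medians were -2.99, -0.95, -0.31 and -1.11. Against DRB, ActD was higher in 6 of 6 ZKSCAN genes (median 2.45), 9 of 12 ZSCAN genes (2.73), 12 of 23 ZBTB genes (1.01) and 3 of 8 ZFP genes (-0.27). Among those other genes the share higher in ActD than in DRB was 31.8%. SCAN is a dimerisation domain shared by the ZSCAN and ZKSCAN proteins, and BTB is the corresponding domain of the ZBTB repressors. With 6 to 23 genes a family, these are descriptions.

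**Figure D3:**
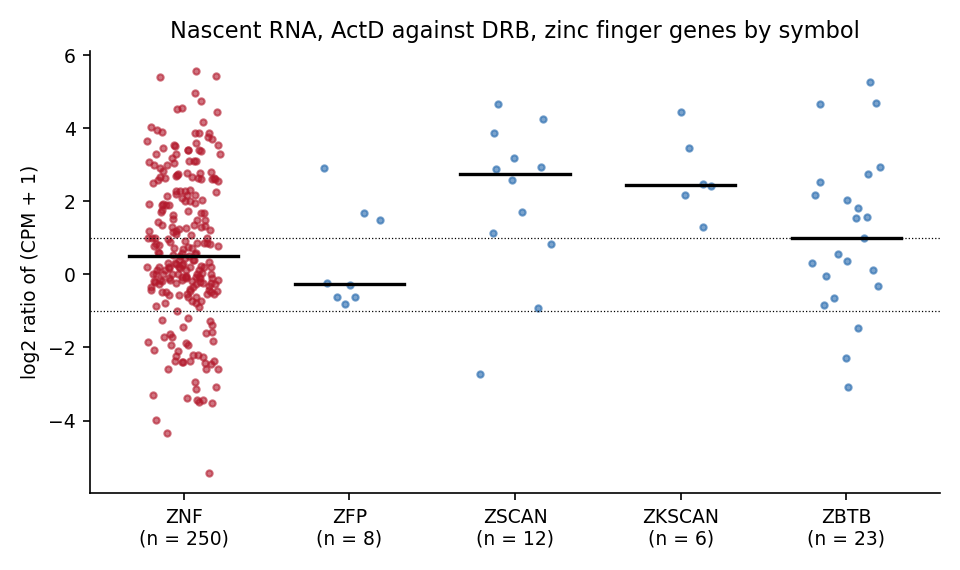
Log2 ratio of CPM + 1 of ActD against DRB (vertical axis) for each gene (points) with at least 100 DMSO counts, by symbol family, with the family median as a bar and 2-fold as dotted lines. Points are spread sideways for sight alone. The ZNF median is 0.50 and the ZSCAN and ZKSCAN medians are 2.73 and 2.45.

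By role, 11 of the chosen genes are known regulators of transcription outside the KRAB class, from a list of 18. Among them, in DRB 8 were lower and 0 higher (median -1.89), and in ActD 5 were lower and 2 higher (-0.95). The shares lower were 72.7% in DRB and 45.5% in ActD. Of all ZNF genes chosen 78.8% and 60.8% were lower, and of other genes with at least 100 DMSO counts 58.8% and 53.1%. ZNF143, an activator bound at many promoters, had 20.6 CPM under DMSO, 0.697 under DRB and 0.238 under ActD, and untreated cells had 6.24 in nascent and 2.44 in total RNA. Both drugs stood lower, at -3.67 and -4.12. Its paralogue ZNF76 had 8.18, 1.26 and 0.238 CPM in DMSO, DRB and ActD. ZNF24, a repressor with a SCAN domain, had 133, 9.0 and 68.0 CPM, lower in DRB at -3.74 and within 2-fold in ActD at -0.95. ZNF281 was low in DRB and high in ActD, at -4.21 and 1.18, as was ZNF335 at -1.34 and 2.19. ZNF148, which binds GC-rich promoters, was below DMSO in both drugs and further below it in ActD than in DRB. It had 67.2 CPM in DMSO, 37.6 in DRB and 3.97 in ActD (-0.82 and -3.78). ZNF644, a partner of the histone methyltransferases EHMT1 and EHMT2, had -0.51 and -1.95. ZNF217, an oncogene product that binds co-repressors, stayed within 2-fold in both, at -0.81 and -0.60. ZNF384, known from leukaemia fusions, had -1.89 and -0.16, ZNF592 -1.83 and -1.21, and ZNF687 -2.44 and 0.95.

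From a list of KRAB class genes, some known to silence repeats, 20 were among the chosen genes, of which 16 were lower in DRB and 15 lower in ActD, and none was higher in either (medians -2.27 and -1.30). These are 80% and 75% lower, beside 78.8% and 60.8% of all ZNF genes chosen. Other genes with at least 100 DMSO counts had 58.8% and 53.1%. ZNF91, which represses SVA retrotransposons, had 58.7 CPM under DMSO, 21.1 under DRB and 67.2 under ActD, and untreated cells had 57.7 in nascent and 89.5 in total RNA. It was lower in DRB (-1.44) and within 2-fold in ActD (0.19). ZNF274, which brings SETDB1 to the ends of other ZNF genes, had 47.9, 4.25 and 20.6 CPM in DMSO, DRB and ActD, lower in both at -3.22 and -1.18. ZNF10, the protein whose KRAB domain is used as a repressor tool, had 9.70 CPM in DMSO and 1 count in each drug. ZNF765 had 9.50 CPM in DMSO, 0.0697 in DRB and 0 in ActD, at least 39.9-fold lower there, and ZNF611 had 9.15, 0 and 0.0794. ZNF649 stood at 24.7, 0.279 and 1.43 CPM. ZNF268 at -0.87 and 0.46, ZNF808 at -0.64 and -0.89, ZNF37A at -0.95 in DRB and ZNF317 at -0.63 in DRB were the 4 that were not lower in DRB. The paralogues ZNF33A and ZNF33B, which can share reads, had -3.02 and -1.60 in DRB and -0.18 and 0.58 in ActD.

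Among 11 genes with roles in RNA, ribosomes or the spindle, 7 were lower in DRB (median -2.03), and in ActD 5 were lower and 1 higher (-0.93). The shares lower, 63.6% in DRB and 45.5% in ActD, compare with 58.8% and 53.1% of other genes with at least 100 DMSO counts. ZNF622, which helps release the large ribosomal subunit from its assembly factors, had 134 CPM under DMSO, 5.44 under DRB and 146 under ActD, and untreated cells had 22.8 in nascent and 34.7 in total RNA. DRB was its low library, at -4.39, and ActD stood at 0.13. ZNF207, a spindle protein, had 109, 16.4 and 138 CPM (-2.66 and 0.34). ZNF598, the ubiquitin ligase that marks collided ribosomes, was lower in both, with 22.0, 2.44 and 1.59 CPM. ZNF593, a factor of large subunit export, had 7.83 CPM in DMSO, 1 count in DRB and 0 in ActD. ZNF638 stood at -0.95 in DRB and was lower in ActD at -1.10, and ZNF106 stayed within 2-fold in both, at -0.46 and -0.93. ZNF326, a subunit of a complex that couples elongation and splicing, stood at -0.08 in DRB and 1.12 in ActD. ZNF318 had -2.03 and -1.31, ZNF330 -1.26 and -1.83, ZNF277 -2.81 and -0.91, and the double-stranded RNA binder ZNF346 -0.50 and 0.99. Outside these lists, ZNF516 had 173, 192 and 271 CPM in DMSO, DRB and ActD, and ZNF131 had 161, 43.2 and 76.8.

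**Figure D4:**
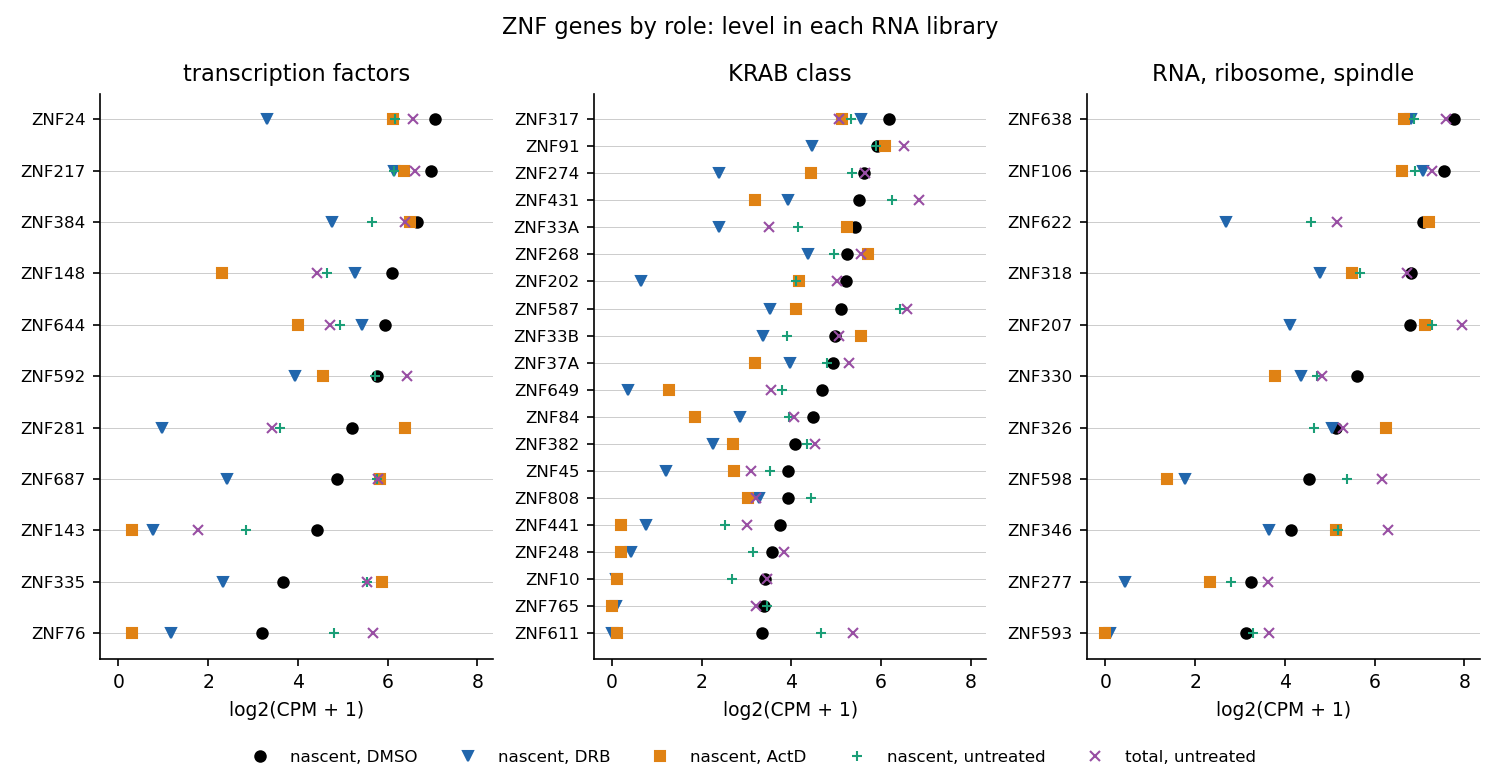
Level of each ZNF gene of the 3 role lists in the 5 RNA libraries, as log2(CPM + 1) on the horizontal axis, 1 library per symbol, with genes ordered by their DMSO level. DRB lies left of DMSO for every gene shown, by little for ZNF326, and ActD lies right of DMSO for genes such as ZNF281, ZNF335 and ZNF326.

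The partner genes of KRAB silencing were described in the same way from a list of 31, of which 30 had at least 100 DMSO counts (ZFP57 did not). In DRB 16 were lower and 0 higher, with a median of -1.05, which turned to 0.13 once centred on the median gene. ActD had 16 lower and 0 higher, with -1.02, or -0.01 once centred. The share lower, 53.3% in either drug, was near that of other genes at that count, which was 58.8% in DRB and 53.1% in ActD. TRIM28, the co-repressor that KRAB domains bind, had 79.9 CPM under DMSO, 4.67 under DRB and 89.7 under ActD, and untreated cells had 99.3 in nascent and 144 in total RNA. DRB was its low library at -3.83, while ActD stood at 0.17. SETDB1, the histone methyltransferase it recruits, had 88.4, 24.5 and 41.4 CPM (-1.81 and -1.07). The lowest in DRB were the methyltransferase SUV39H1 at -4.73, the remodeller SMARCAD1 at -4.03 and TRIM28. The highest were the remodeller ATRX at 0.66, the heterochromatin protein CBX1 at 0.52 and GATAD2A at 0.22. In ActD GATAD2A was the lowest at -4.69, SUV39H1 stood at -3.80 and MTA2 at -2.88, and CBX1 at 0.32, TRIM28 at 0.17 and CBX3 at 0.04 were the highest.

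Nascent and total RNA of untreated cells, again independent of the rule, differed little for these genes. Of 250, 19 (7.6%) were higher and 19 (7.6%) lower in nascent than in total RNA, at a median of -0.33, or 0.01 once centred on the median gene. The balance of higher and lower held on that uncentred scale alone: once centred 25 were higher and 4 lower, and rescaled without mitochondrial, ribosomal RNA and polymerase III genes 24 and 7. The centred shares were 10.0% and 1.6% of ZNF genes and 8.32% and 2.66% of others at that count. Uncentred, other genes with at least 100 DMSO counts had 4.76% higher and 8.35% lower, and all 13988 genes tested 9.5% and 17.8%. ZNF180 had 8.38 CPM in nascent and 0.710 in total RNA, a ratio of 2.46 (without the added CPM 3.56, interval 2.61 to 4.71). ZNF529 followed with 12.0 and 1.97 CPM (2.12), ZNF512 with 50.8 and 13.5 (1.84), and ZNF100 and ZNF530 at 1.44. ZNF189 had 7.67 CPM in nascent and 29.9 in total RNA (-1.83), ZNF215 3.34 and 12.5 (-1.63), ZNF254 4.45 and 14.3 (-1.49), ZNF597 2.03 and 7.26 (-1.45) and ZNF430 6.98 and 18.2 (-1.27). With 1 library each, the capture step and the library cannot be told apart. The DMSO and untreated nascent libraries differed more. In DMSO 58 (23.2%) were higher and 19 (7.6%) lower, the median being 0.31, against 28.3% and 11.3% of other genes at that count and 23.3% and 24.5% of 13714 genes tested. That ratio shares the DMSO count with the rule, and the mitochondrial share differs between these libraries as given above.

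Chromatin was read at the 5′ end of 211 genes, as a listed peak within 1000 bases either side of the annotated start. The H2A.Z variant sits beside active and poised starts, and its acetylated form goes with active ones. Nearly every ZNF start carried acH2A.Z. In DMSO 201 had a peak (95.3%, exact 95% interval 91.5 to 97.7%), in DRB 199 (94.3%, 90.3 to 97.0%) and in ActD 194 (91.9%, 87.4 to 95.2%). Among 6210 other genes with at least 100 DMSO counts the shares were 91.2%, 94.1% and 86.4%. In all 3 lists a peak stood at 190 ZNF starts (90.0%, 85.2 to 93.7%), against 83.5% of others (82.5 to 84.4%). The 10 ZNF genes without one in DMSO were ZNF117, ZNF254, ZNF273, ZNF276, ZNF514, ZNF574, ZNF587B, ZNF701, ZNF75D and ZNF814. ZNF276 had one in DRB alone of the 3 lists and ZNF814 in ActD alone. In DMSO 87.9% of acH2A.Z peaks over the ZNF genes lay in the first 20% of the gene, against 75.3% in other genes. In ActD these shares were 78.7% and 58.4%. Other genes held more acH2A.Z peaks over the gene body, with a mean per gene of 1.27 against 1.10 in DMSO and 1.98 against 1.28 in ActD. The share thus depends on the number of peaks further inside the gene, and it is not a distance from the start.

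The acH2A.Z peaks of these starts held fewer tags under either drug. The authors' tag counts were summed over the peaks at each start. At the 190 starts the sum had a median of 527 in DMSO, 278 in DRB and 320 in ActD, and at 5185 other starts 639, 327 and 400. The median log2 ratio of tags to DMSO was -0.90 in DRB and -0.76 in ActD, and -1.0 and -0.62 for other genes. These counts are compared on the assumption that each list is scaled to the same number of tags, and the lists hold 17007, 29432 and 31240 peaks. ZNF200, whose RNA was among the lowest in DRB, had 415 tags in DMSO, 109 in DRB and 235 in ActD. ZNF202 had 359, 540 and 193, and ZNF281 226, 277 and 110, so these 2 had more tags in DRB, where their RNA was lowest. ZNF184, low in ActD RNA, had 2758, 564 and 2401. By the authors' score the top acH2A.Z starts in DMSO were ZNF274 at 286, ZNF605 at 283, ZNF671 at 270, ZNF225 at 235 and ZNF12 at 226.

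Acetylated H2A.Z is also H2A.Z, so a start without a listed H2A.Z peak need not lack H2A.Z. With an antibody not limited to the acetylated form, H2A.Z itself was listed at far fewer ZNF starts than acH2A.Z. It was listed at 28 ZNF starts in DMSO (13.3%), 48 in DRB (22.7%) and 18 in ActD (8.53%), against 13.8%, 24.8% and 8.94% of other genes, so the shares of the 2 sets lay within 3 percentage points. The H2A.Z lists held 1271, 4191 and 17888 peaks, so more listed peaks in ActD did not mean more at these starts. All 3 lists had a peak at ZNF143, ZNF184 and ZNF432. A peak in DMSO alone stood at 10 starts, among them ZNF551, ZNF362, ZNF106, ZNF326 and ZNF451, in DRB alone at 25, among them ZNF189, ZNF772, ZNF121, ZNF292 and ZNF740, and in ActD alone at 8, among them ZNF484, ZNF708, ZNF724, ZNF337 and ZNF585A. These are 4.74%, 11.8% and 3.79% of ZNF starts, near the 5.27%, 14.5% and 3.51% of other starts.

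The siMyc and siNTC lists address MYC, a transcription factor that binds E-boxes. An acH2A.Z peak was listed at 192 ZNF starts in siNTC (91.0%) and at 121 in siMyc (57.3%), against 91.1% and 52.4% of other genes. Of the 192 siNTC starts, siMyc also had 118 (61.5%, 54.2 to 68.4%), and of the 5657 other starts 56.1% (54.8 to 57.4%). A peak in siMyc alone stood at 3 starts (1.42%, against 1.27% of others), ZNF430, ZNF597 and ZNF714. At the shared 118 the median tag count, summed per start, was 152 in siNTC and 32.8 in siMyc, and at 3172 other starts 242 and 28.7. The lists hold 17353 and 14528 peaks and, per the deposited headers, were scaled to their controls in different ways, so library and label cannot be told apart. ZNF593, with the E-box shown above, had 385 tags in siNTC and no listed peak in siMyc, and ZNF202 had 282 and 45.8. Of 13 E-box starts with a siNTC peak 6 kept one in siMyc, and of 179 without the E-box 112 did (62.6%, 55.0 to 69.7%). The interval for the 13 is 19.2 to 74.9%, too wide to compare the shares with and without the E-box. With 1 list per label, a role of the E-box was not tested. Other genes kept 56.7% of 665 starts with the E-box and 56.0% of 4992 without. For H2A.Z the counts were 31 starts in siNTC (14.7%) and 58 in siMyc (27.5%), against 14.5% and 23.5% of other genes.

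**Figure D5:**
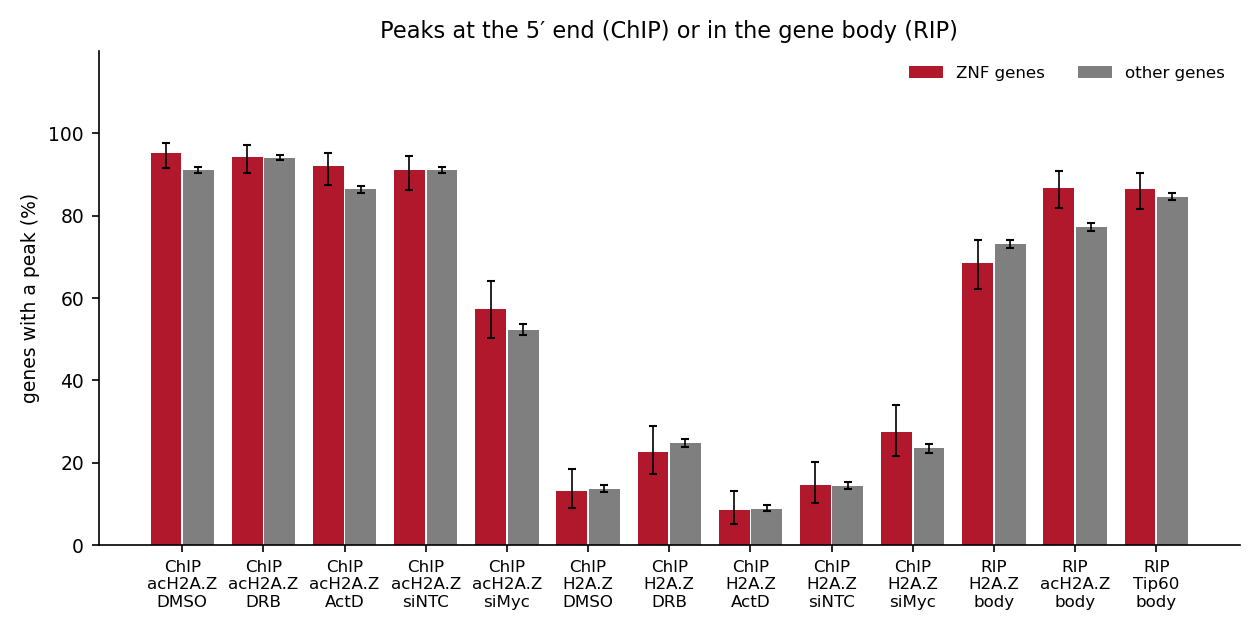
Share of ZNF genes and of other genes with at least 100 DMSO counts (bars, %) that have a listed peak at the 5′ end in each of the 10 ChIP lists, or over the gene body in the 3 RIP lists, with exact 95% binomial intervals. The acH2A.Z share of ZNF genes is 91.0% or more in every list but siMyc, at 57.3%, and the acH2A.Z RIP bars are 86.8% and 77.2%.

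RIP recovers RNA held by a protein, and the peaks were read over the whole gene of all 250 genes. Every deposited peak is written on the plus strand, so a peak cannot be assigned to the sense or antisense RNA. With the acH2A.Z antibody 217 ZNF genes had a peak (86.8%, 82.0 to 90.7%), against 77.2% of 7568 other genes. With H2A.Z 171 did (68.4% against 73%) and with Tip60 216 (86.4% against 84.6%). The acH2A.Z difference was widest in short genes. Under 20 kb 66 of 88 ZNF genes had a peak (75%, 64.6 to 83.6%) against 50.4% of others, between 20 and 50 kb 90.9% against 83.2%, and over 50 kb 98.1% against 97.2%. A share of genes with a peak depends on span, and the H2A.Z shares under 20 kb were 37.5% and 42.6%, and the Tip60 shares 69.3% and 60.7%. Counted as peaks per 100 kb under 20 kb, acH2A.Z stood closer, at 9.89 for ZNF genes and 8.31 for others, while Tip60, at 9.71 and 11.5, and H2A.Z, at 3.68 and 6.34, were lower in ZNF genes. All 3 lists had a peak in 150 ZNF genes (60%) and 60.6% of others, and 10 ZNF genes (4%) had none, against 7.1% of others. ZNF407, of 468 kb, had the most peaks, with 31 for H2A.Z, 64 for acH2A.Z and 69 for Tip60. Per 100 kb the densest of the named genes was ZNF516 for Tip60, with 31 peaks or 22.3 per 100 kb, and ZNF362 had 33 acH2A.Z peaks or 19.1 per 100 kb. ZNF281 and ZNF593 had none in any of the 3 lists.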

How the data were processed

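Each library was its own group, named from its title and treatment label. The ZNF genes, gene lists, motifs and classes were chosen with earlier results of these data known, and the bins that divide genes by span and count together, and the second set of genes chosen on untreated nascent RNA, were added after seeing the data. Named genes are the 5 highest and 5 lowest ratios with at least 100 summed counts per comparison, the 5 highest DMSO levels, the role lists, 3 genes either side of the threshold, the 5 highest peak scores or counts, up to 5 starts in 1 treatment list alone, and of the partners the 3 highest and 3 lowest. ZNF432, ZNF714, ZNF689, ZNF549, the starts without an acH2A.Z peak in DMSO and the genes that bound a run were named after their values were seen.

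The submitters' processing notes name GRCh38, and as tools HOMER, STAR 2.5.2b, cutadapt, Trim Galore and FastQC. The sources used here do not name the quantifier behind the gene tables. The deposited gene tables hold expected counts per gene, and in 3 of them (nascent DMSO, DRB and ActD) other values are packed into the same field, from which the deposited expected counts were separated. Per the file headers the peak lists hold, for each peak, a normalized tag count (signal), a find-peaks score, a fold over control (ratio) and a p-value. The lowest fold among the deposited peaks is 4, and the largest p-value 0.0001. The authors called peaks per library. They do not name the control library or the scale of the tags either.

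Expected counts were divided by the library total to give CPM, and log2 ratios taken after adding 1 CPM. A fold change on this scale understates low genes. Genes tested had a mean of at least 1 CPM and 20 summed counts. All ratios are relative to other RNA of the same library. Intervals are exact binomial (Clopper-Pearson) over rounded counts or over genes, and, like the floor of 3 counts behind a 0, cover nothing beyond counting error, because no molecular identifiers mark which reads copy 1 molecule. Positions came from RefSeq (GRCh38.p14) by symbol or synonym for 250 of 250 ZNF genes, and a promoter with strand for 211. The 11 on chromosome 8 are among the 39 without one. RIP overlap was planned on the gene strand, which could not be applied, and a KRAB class from protein sequence was not made. IgG libraries were not analysed here. Python 3.11.15, NumPy 2.4.6, pandas 2.3.3, SciPy 1.17.1 and matplotlib 3.10.9 were used, and the calculations were tested on simulated data.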

Additional observations from a re-analysis of the deposited data

How the results depend on the processing

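Every DRB, ActD, ActD against DRB and nascent against total comparison of the ZNF genes rests on 1 library per group, so no library was left out. No paired analysis was possible because each group holds 1 library. RIP peaks on the gene strand were not run, since every peak is written on the plus strand. Of the 156 values recomputed for the main comparisons 112 stayed within tolerance, 43 moved further and 1 turned sign. The tolerance was 1.5 times for a count and the 95% order-statistic interval over genes for a median. It is wide: inside it lie 133 genes lower in DRB and 104 lower in ActD once centred, in place of 197 and 152, and 27 H2A.Z starts in ActD with a window of 5000 bases in place of 18. The cause of these moves was not tested unless the alternative makes it plain.

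In DRB the median was -1.35 with 5 CPM added, -1.11 centred on the median gene, -1.80 rescaled without mitochondrial, ribosomal RNA and polymerase III genes, and -2.04 for ZNF genes chosen on untreated nascent RNA. Genes higher in DRB numbered 23 centred, 12 rescaled, 5 with at least 50 DMSO counts, 1 with at least 200 and 7 chosen on untreated nascent RNA, and genes lower 118 with at least 200. In ActD the median was -1.08 with 5 CPM added, -0.41 centred, -1.08 rescaled and -1.09 with at least 200 counts. Genes higher in ActD numbered 52 centred, 29 rescaled, 9 with at least 200 counts and 29 chosen on untreated nascent RNA, and genes lower 85 with at least 200. Fewer genes enter at 200 counts, 150 in place of 250.

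For ActD against DRB, 29 were lower with 5 CPM added, and with at least 200 counts 24 were lower and the median was 0.83. For nascent against total RNA the median was 0.0072 centred and -0.077 rescaled. Lower genes numbered 6 with 5 CPM added, 4 centred, 7 rescaled and 8 with at least 200 counts, and higher genes 3 with 5 CPM added and 9 with at least 200. For DMSO against untreated nascent RNA the median was 0.083 rescaled, 0.54 with at least 200 counts and 0.033 chosen on untreated nascent RNA. Higher genes numbered 35 with 5 CPM added, and lower genes 31 rescaled, 7 with at least 200 counts and 52 chosen on untreated nascent RNA.

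With peaks limited to at least 8-fold over control, ZNF starts with a peak numbered 9 for H2A.Z in ActD (4.27%, others 3.91%), 6 for H2A.Z in siNTC (2.84%, others 1.38%), 16 for H2A.Z in siMyc (7.58%, others 3.45%) and 39 for acH2A.Z in siMyc (18.5%, others 11.9%). The median of the KRAB partner genes centred on the median gene turned to 0.13 in DRB and was -0.013 in ActD and -0.020 in nascent against total RNA. Depth limits the low end: 41 of the 250 genes had under 3 counts in DRB and 35 in ActD.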

Other observations

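ZNF symbols below the threshold were partly detected in other libraries. With at least 100 counts there were 301 ZNF genes in untreated nascent RNA, the deepest library, 246 in total RNA, 129 in ActD and 101 in DRB, against 250 in DMSO. Of all 557 ZNF symbols, 152 were at 0 under DMSO, 238 under DRB and 220 under ActD, and in untreated cells 26 in nascent and 145 in total RNA. Of the 250 genes chosen, 91 kept at least 100 counts in DRB and 111 in ActD.

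The runs of neighbouring ZNF genes differed in their ActD to DRB ratio. The run from ZNF264 to ZNF324 on chromosome 19 had a median of 1.69 over 23 genes, and that from ZNF577 to ZNF331 0.69 over 19. The run from ZNF428 to ZNF180 had 0.00 over 11 and that from ZNF786 to ZNF767P on chromosome 7 -0.41 over 8. Members of a run share sequence and can share reads, so they are not independent. By promoter letters, ZNF genes with CCAAT had a DRB median of -2.72 (94 genes) and those without -2.13 (117). With the E-box it was -1.60 (16 genes) and without -2.33 (195), and with TATAAA -2.99 (8 genes) and without -2.21 (203). Other genes with at least 100 DMSO counts differed less. Their medians with and without were -1.36 and -1.30 for CCAAT, -1.28 and -1.33 for the E-box, and -1.15 and -1.33 for TATAAA. For SP1, ETS, YY1 and CRE letters the ZNF medians with and without lay between -2.43 and -2.16.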
